A study of Homo sapiens with 10 samples.

Results

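The difference in the response to VXN between HT29 and t-hESC cells was measured over 8 of the 10 RNA-seq libraries of the series, 2 biological replicates in each of 4 groups. The groups were HT29 with 10 µM of VXN, HT29 with the solvent DMSO, t-hESC with 10 µM of VXN and t-hESC with DMSO, all after 48 hours. HT29 is a cell line from a colorectal cancer, and t-hESC is labelled as transformed pluripotent stem cells. The series title places the work under drug-induced change of H3K9me2, the dimethylated form of lysine 9 on histone H3, and the labels give the compound VXN by this code only. Compound, dose and duration were taken from titles and labels, whose treatment entry reads DMSO for every library. For each gene the response is the log2 fold change of VXN over DMSO within a line, and the difference is the HT29 response minus the t-hESC response. All 60651 gene rows of the count table entered, and 22495 genes passed the filter on low counts and were tested. Levels are CPM, counts scaled to the size of each library. A gene was called at an adjusted p under 0.05 (edgeR quasi-likelihood test, Benjamini-Hochberg over the 22495 genes).

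Several of the gene groups measured have well known controls. Interferon-stimulated genes are switched on by transcription factors such as IRF9, which bind a short element in their promoters, and their products restrict viruses and load HLA class I molecules with peptides. NRF2 drives genes of glutathione and thioredoxin metabolism, ATF4 drives amino acid synthesis and transport when translation is stressed, and chaperones of the endoplasmic reticulum are raised by the unfolded protein response. Genes of DNA replication are driven by E2F factors and genes of mitosis are controlled by the DREAM and MuvB complexes, while SREBP2 drives cholesterol synthesis when sterols are low and the oxysterol receptors LXR drive sterol export when they are high.

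The 8 libraries held 16295315 to 24492838 gene counts, and a gene with 0 counts could still stand at 0.124 to 0.179 CPM by counting error alone. Log2 CPM correlated at 0.997 to 0.999 (Pearson r) for replicates and at 0.728 to 0.762 for libraries of different lines. All p-values rest on the spread of replicate libraries, mostly pooled over genes and over 5 groups, and on nothing else. The variance between replicates was 1.19 to 1.85 times that of counting error (chi-square per degree of freedom). Small responses could therefore be called, and how far further cultures would vary was not tested. The 12 pluripotent markers summed to 12.7 and 17.0 CPM in HT29 VXN, 13.7 and 12.1 CPM in HT29 DMSO, 5588 and 5594 CPM in t-hESC VXN and 6199 and 6095 CPM in t-hESC DMSO. The 10 markers of colon epithelium summed to 2075 and 2072 CPM in HT29 VXN, 1705 and 1686 CPM in HT29 DMSO, and 114 to 127 CPM in t-hESC. EPCAM made up most of the t-hESC sum (108 to 116 CPM). In HT29, 3 of the 9 colon markers tested rose and 3 fell. KRT20 had 700 and 707 CPM with VXN there, against 247 and 252 CPM with DMSO. VIL1 had 96.1 and 94.1 CPM, against 181 and 184 CPM. CDX2, a defining intestinal factor, stood at only 1.22 to 1.73 CPM in HT29. Of 12 fibroblast markers the sum was 58.3 CPM in both HT29 VXN libraries, 121 and 117 CPM in HT29 DMSO, 1268 and 1261 CPM in t-hESC VXN and 996 and 1007 CPM in t-hESC DMSO. S100A4 made up most of the HT29 sum and fell there (response -1.25), while 5 of the 10 fibroblast markers tested rose in HT29. In t-hESC, THY1 (858 and 856 CPM with VXN, 586 and 589 CPM with DMSO) and FBLN1 (277 to 292 CPM) made up most of the sum. DCN and LUM were at most 0.0471 CPM there. Of 10 blood cell markers LYZ, which HT29 held at 1397 to 2982 CPM, made up nearly all of the sum in HT29, PTPRC and CD3E were at 0.0824 CPM or less in every library, and the part of these cells in any result was not tested. In bulk RNA, fewer cells of a type and less RNA per cell cannot be told apart.

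VXN changed far more genes in HT29 than in t-hESC. In HT29, 7430 genes rose and 6060 fell, together 60% of the genes tested (33% and 26.9%). In t-hESC, 3254 rose and 3277 fell, together 29% (14.5% and 14.6%). Rises and falls of at least 1 on the log2 scale numbered 2736 (12.2%) and 1668 (7.41%) in HT29, against 345 (1.53%) and 119 (0.529%) in t-hESC. The difference was called for 43.2% of genes, above 0 for 5161 (22.9%) and below 0 for 4561 (20.3%), and it reached 1 on the log2 scale in 1820 (8.09%) and 1440 (6.4%) of them. Which sign was more frequent turned with the scaling, since size factors of the DESeq2 type gave 4766 above 0 and 4945 below, and DESeq2 gave 3571 and 3882. Sizes differed as well as counts. Among the 14235 genes that averaged 1 CPM or more in both lines, the SD of the response over genes was 0.845 in HT29 and 0.302 in t-hESC on the log2 scale, and across these genes, which are not independent, the responses of the 2 lines had a Pearson r of 0.308 and a Spearman rho of 0.347. The median response over all genes tested was 0.055 in HT29 and 0.0036 in t-hESC.

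**Figure D1:**
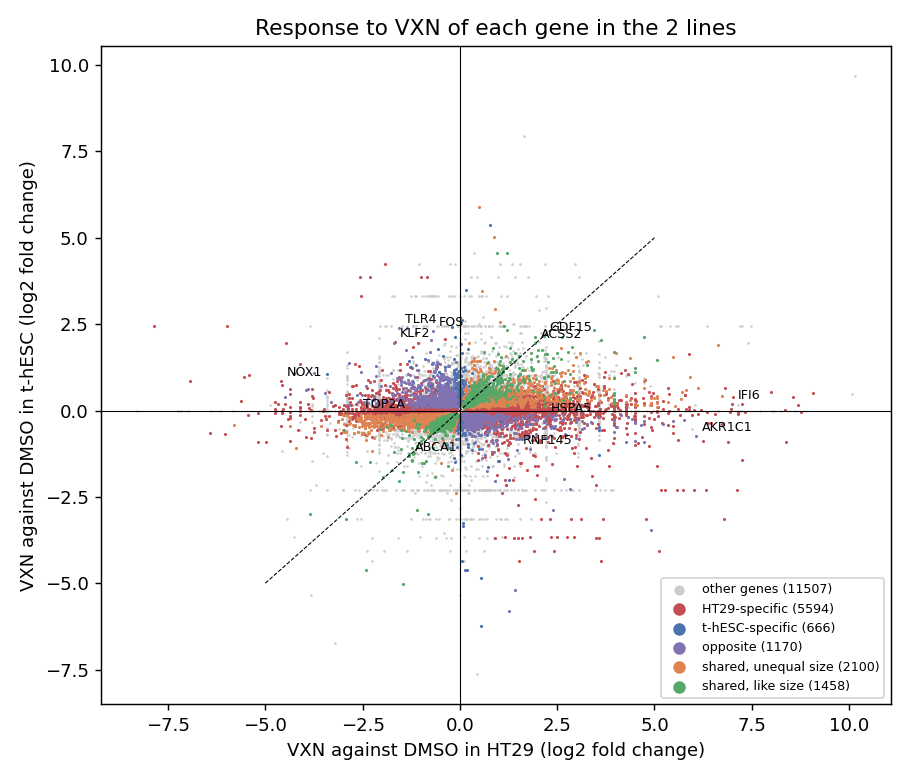
Log2 fold change of VXN against DMSO in HT29 (horizontal axis) and in t-hESC (vertical axis) for the 22495 genes tested, 1 point a gene, coloured by kind of response; the dashed line marks equal responses. The cloud is wider along the HT29 axis, and the rows of grey points lie where a t-hESC group holds few or no counts, so that the fitted value there rests on the estimate alone.

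Sorted by these calls, 5594 genes (24.9%) were HT29-specific: they were called in HT29 and for the difference but not in t-hESC. Of these, 3201 rose and 2393 fell, and t-hESC held 2804 of the rising genes and 2235 of the falling genes at a mean of at least 1 CPM, so that most were measurable in the line that gave no call. The t-hESC-specific genes were 666 (2.96%), with 349 that rose and 317 that fell. Opposite responses, called in both lines with different signs, were found for 1170 genes (5.2%): 641 rose in HT29 and fell in t-hESC, and 529 fell in HT29 and rose in t-hESC. Many opposite responses were small, since the smaller of both reached 0.5 on the log2 scale in 48 of the 641 and 98 of the 529. The shared genes were called in the same direction in both lines. For 1458 of them (6.48%, 726 up and 732 down) the difference was not called, and for 2100 (9.34%, 931 up and 1169 down) it was, with the larger response in HT29 for 1943 and in t-hESC for 157. Same-direction rises were 22.3% of the HT29 rises and 50.9% of the t-hESC rises, and same-direction falls were 31.4% and 58% of the falls in these lines. A further 4305 genes (19.1%) were called in 1 line with no call for the difference, and they are not counted as specific to it. The difference alone was called for 192 (0.854%), and 7010 (31.2%) had no call.

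**Figure D2:**
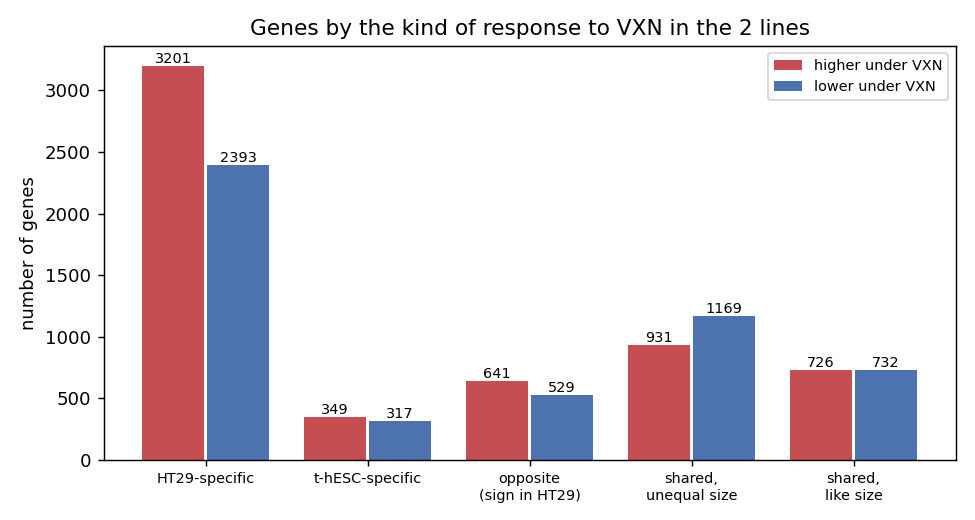
Number of genes (vertical axis) with each kind of response, split by direction under VXN, in the named line for the specific genes and in HT29 for the rest. HT29-specific genes are the most numerous, with 3201 that rose and 2393 that fell, and opposite genes number 641 and 529.

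Interferon-stimulated genes gave the highest median difference of the lists, 3.78 on the log2 scale, against 0.054 over all genes. Of the 30 members tested, 29 rose and 0 fell in HT29, and 7 rose and 2 fell in t-hESC. The difference was above 0 for 29 and below 0 for 0 of the 30, and t-hESC held 18 of them at 1 CPM or more. IFI6, a membrane protein that limits cell death and viral replication (chr1:27666064-27672192, GRCh38), had 213 and 213 CPM in HT29 VXN libraries, against 1.77 and 1.54 CPM in HT29 DMSO libraries. In t-hESC it had 6.34 and 6.32 CPM in t-hESC VXN libraries, against 5.22 and 5.93 CPM in t-hESC DMSO libraries, so that the HT29 groups stood far apart while the t-hESC groups lay close together. Its difference was 6.83 ± 0.21 (SE, adjusted p = 5.71e-38). ISG15, a ubiquitin-like modifier, rose in both lines, by 3.07 in HT29 and 0.29 in t-hESC.

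Within the list, sensors, antiviral effectors and factors moved alike in HT29. IFIT1, an RNA-binding inhibitor of viral translation, had 131 and 137 CPM in HT29 VXN libraries, against 2.06 and 2.73 CPM in HT29 DMSO libraries. It had 5.32 and 4.06 CPM in t-hESC VXN libraries, against 2.97 and 3.25 CPM in t-hESC DMSO libraries, which was also a called rise, and the difference was 5.22 ± 0.25 (SE). MX1, a GTPase that traps viral capsids, had 116 and 118 CPM in HT29 VXN libraries, against 4.45 and 4.4 CPM in HT29 DMSO libraries, while in t-hESC its response of -0.38 was not called (adjusted p = 0.186). RSAD2, XAF1 and IFI44L were under 1 CPM in t-hESC and in HT29 DMSO, and reached 15.9 and 13.5 CPM, 26 and 26.5 CPM and 23.7 and 21.6 CPM in HT29 VXN. IRF9, a DNA-binding factor of the interferon response, rose in both lines (3.21 in HT29, 0.93 in t-hESC). IFITM2 was the 1 member with no called difference.

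Genes of HLA class I antigen presentation had a median difference of 1.27. Of the 16 members tested, 15 rose and 1 fell in HT29, and 6 rose and 2 fell in t-hESC. TAP1, which pumps peptides into the endoplasmic reticulum, had 31.5 and 28.3 CPM in HT29 VXN libraries, against 4.41 and 4.01 CPM in HT29 DMSO libraries. It had 24.6 and 26.9 CPM in t-hESC VXN libraries, against 18.2 and 18.4 CPM in t-hESC DMSO libraries, so VXN libraries lay above DMSO libraries in both lines, with a difference of 2.33 ± 0.13 (SE, adjusted p = 2.93e-24). HLA-B and HLA-C rose by 1.81 and 1.57 in HT29 and by 0.29 and 0.12 in t-hESC, and since HLA genes resemble each other their counts may be shared. NLRC5, the transactivator of these genes, had 24.6 and 25.9 CPM in HT29 VXN libraries, against 0.247 and 0.128 CPM in HT29 DMSO libraries, and PSMB9, an immunoproteasome subunit, rose by 4.13 in HT29 with no call in t-hESC (response 0.32). PSMB10 and ERAP1 were opposite, rising by 0.55 and 1.24 in HT29 and falling by 0.34 and 0.19 in t-hESC.

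The promoters of IFI6 and TAP1 show the element that the interferon factors bind. They run from 250 bases before to 50 after the start, from RefSeq (GRCh38.p14), and capitals mark each match to GAAANNGAA on either strand, overlapping matches included. The IFI6 window is chr1:27672143-27672442, minus strand, and the TAP1 window is chr6:32853655-32853954, minus strand.
IFI6: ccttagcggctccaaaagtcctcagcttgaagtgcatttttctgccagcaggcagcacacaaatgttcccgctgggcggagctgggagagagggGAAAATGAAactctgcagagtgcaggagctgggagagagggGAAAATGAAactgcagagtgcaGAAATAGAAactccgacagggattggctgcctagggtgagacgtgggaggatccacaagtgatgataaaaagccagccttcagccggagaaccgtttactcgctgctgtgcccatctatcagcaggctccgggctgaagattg
TAP1: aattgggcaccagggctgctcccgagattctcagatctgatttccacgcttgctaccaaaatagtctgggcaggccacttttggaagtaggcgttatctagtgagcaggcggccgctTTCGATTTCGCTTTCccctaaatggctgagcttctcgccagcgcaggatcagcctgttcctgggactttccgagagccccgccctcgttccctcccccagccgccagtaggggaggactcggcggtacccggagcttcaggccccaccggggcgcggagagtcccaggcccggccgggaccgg
IFI6 holds 3 matches and TAP1 2. Among the class I genes 7 of 13 promoters held a match (53.8%), against 8.29% of all 27305 promoters of this length. The interferon list had 22 of 30 members with a promoter, under the 80% of members that was asked for a share. The motif was added after the values were seen, and a match is no proof of a bound site.

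Genes of NRF2, glutathione and thioredoxin rose in HT29 with little change in t-hESC. Of the 25 members tested, 23 rose and 1 fell in HT29, and 4 rose and 6 fell in t-hESC, and the median difference was 1.76. AKR1C1, an aldo-keto reductase of steroid and carbonyl metabolism (chr10:4963415-4983283), had 898 and 878 CPM in HT29 VXN libraries, against 13.8 and 12.6 CPM in HT29 DMSO libraries. In t-hESC it had 1.08 and 1.19 CPM in t-hESC VXN libraries, against 1.7 and 2.07 CPM in t-hESC DMSO libraries, a fall, and the difference was 6.82 ± 0.31 (SE, adjusted p = 5.8e-29). AKR1C2 and AKR1C3 moved the same way in HT29 (6.89 and 2.7), and because these copies are near-identical their reads may be shared. FTH1, the heavy chain of the iron store ferritin, had 14403 and 14655 CPM in HT29 VXN libraries, against 2710.0 and 2545 CPM in HT29 DMSO libraries. It had 1598 and 1559 CPM in t-hESC VXN libraries, against 1280.3 and 1287 CPM in t-hESC DMSO libraries, so both lines rose, by 2.47 in HT29 and 0.3 in t-hESC. FTL, the light chain, rose by 2.5 and 0.31 in the same lines, and both ferritin genes have many processed copies. TXNRD1, thioredoxin reductase, had 1917 and 1933 CPM in HT29 VXN libraries, against 536 and 539.8 CPM in HT29 DMSO libraries, with a difference of 1.73 ± 0.045 (SE). HMOX1, GCLM, GCLC, SRXN1 and OSGIN1 were HT29-specific rises of 1.43 to 2.81. NQO1, often used as a readout of NRF2, rose by 0.5 in HT29 and had a response of 0.089 in t-hESC that was not called, and PRDX1 was the 1 member that fell in HT29 (-0.43).

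Chaperones and quality control genes of the endoplasmic reticulum gave a called difference above 0 for each of the 20 genes listed, with a median of 0.68. In HT29, 19 rose and 0 fell, while 8 rose and 6 fell in t-hESC. HSPA5 (BiP), the major chaperone of the lumen, had 2130.0 and 2115 CPM in HT29 VXN libraries, against 469 and 461 CPM in HT29 DMSO libraries. It had 535 and 523 CPM in t-hESC VXN libraries, against 613 and 598 CPM in t-hESC DMSO libraries, so that it rose in HT29 and fell slightly in t-hESC, and the difference was 2.39 ± 0.041 (SE, adjusted p = 1.22e-51). HYOU1 and HSP90B1 were opposite as well, with rises of 1.82 and 0.65 in HT29 and falls of 0.14 and 0.25 in t-hESC. HERPUD1, DNAJB9 and EDEM1, which serve the disposal of misfolded proteins, rose in both lines and more in HT29 (1.97, 2.06 and 1.08) than in t-hESC (0.29, 0.52 and 0.57). The RefSeq promoter of HSPA5 (chr9:125241294-125241593, minus strand) is shown because CCAAT is part of the element through which the unfolded protein response acts. Capitals mark CCAAT on either strand.
HSPA5: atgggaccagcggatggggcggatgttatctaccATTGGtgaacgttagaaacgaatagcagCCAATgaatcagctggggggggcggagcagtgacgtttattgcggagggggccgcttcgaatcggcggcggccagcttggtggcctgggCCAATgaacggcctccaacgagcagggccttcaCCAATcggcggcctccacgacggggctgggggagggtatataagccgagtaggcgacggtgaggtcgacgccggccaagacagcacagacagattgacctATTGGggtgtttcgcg
It holds 5 matches, and 17 of the 19 promoters found for the list hold at least 1 (89.5%), against 35.7% of all promoters.

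ATF4 targets and lysosome genes rose widely in HT29 too. Of the 33 members tested, 28 rose and 3 fell in HT29, and 15 rose and 6 fell in t-hESC, with a median difference of 0.85 for ATF4 targets. DDIT4, an inhibitor of mTORC1, had 431 and 439 CPM in HT29 VXN libraries, against 71.1 and 69.9 CPM in HT29 DMSO libraries. It had 143 and 151 CPM in t-hESC VXN libraries, against 179.9 and 176 CPM in t-hESC DMSO libraries, an opposite response with a difference of 2.89 ± 0.052 (SE, adjusted p = 1.05e-50). The tRNA synthetase gene WARS1 was opposite (1.68 in HT29, -0.22 in t-hESC), AARS1 was HT29-specific (1.32), and the stress factors DDIT3 and ATF3 rose in both lines, by 3.56 and 3.33 in HT29 and 0.72 and 0.57 in t-hESC. PHGDH and ATF5 fell in HT29 (-0.29 and -0.66). Of 26 lysosome and autophagy genes, 20 rose and 3 fell in HT29, against 9 and 6 in t-hESC. SQSTM1, the autophagy receptor p62, had 3115 and 3076 CPM in HT29 VXN libraries, against 417 and 414 CPM in HT29 DMSO libraries. It had 132 and 133 CPM in t-hESC VXN libraries, against 93.6 and 99.99 CPM in t-hESC DMSO libraries, a smaller rise, and the difference was 2.45 ± 0.049 (SE). CTSL, a lysosomal protease, was HT29-specific with a rise of 2.25, and CTSD was opposite (1.06 in HT29, -0.11 in t-hESC).

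Cell cycle genes fell in HT29 and far less in t-hESC. Each of the 36 G1/S and replication genes fell in HT29, 33 of them also fell in t-hESC, and the difference was called below 0 for each, with a median of -1.84. MCM6, a subunit of the replicative helicase, had 25.6 and 22.1 CPM in HT29 VXN libraries, against 159 and 155 CPM in HT29 DMSO libraries. It had 151 and 147 CPM in t-hESC VXN libraries, against 235 and 234 CPM in t-hESC DMSO libraries, so the VXN libraries lay below the DMSO libraries in both lines, and the difference was -2.06 ± 0.065 (SE, adjusted p = 1.42e-37). TYMS and RRM2, which supply nucleotides, fell by 2.55 and 2.7 in HT29 and by 0.24 and 0.43 in t-hESC. The 32 G2/M and mitosis genes fell by a median of 2.26 in HT29 and had a median of -0.14 in t-hESC, where 18 fell and 1 rose. TOP2A, which untangles DNA in mitosis, had 106 and 103 CPM in HT29 VXN libraries, against 637 and 645 CPM in HT29 DMSO libraries. It had 683 and 653 CPM in t-hESC VXN libraries, against 710.1 and 695 CPM in t-hESC DMSO libraries, with no call in t-hESC (adjusted p = 0.0538) and a difference of -2.55 ± 0.045 (SE, adjusted p = 4.32e-51). MKI67, the proliferation antigen Ki-67, was the 1 opposite member: it fell by 2.21 in HT29 and rose by 0.3 in t-hESC. Among 9 inhibitors of cyclin-dependent kinases and RB family genes, 2 rose and 7 fell in HT29, against 3 and 0 in t-hESC. CDKN1A (p21) had 98.1 and 96.9 CPM in HT29 VXN libraries, against 9.6 and 10.8 CPM in HT29 DMSO libraries. It had 119 and 120.0 CPM in t-hESC VXN libraries, against 59.1 and 61.2 CPM in t-hESC DMSO libraries, a called rise in both lines with a difference of 2.26 ± 0.082 (SE).

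Promoters of MCM6 (chr2:135876394-135876693, minus strand) and CENPF (chr1:214602945-214603244, plus strand), a kinetochore gene, are printed from RefSeq for the replication and the mitosis genes. Capitals mark TTTNGCGC, the E2F site, in MCM6 and CCAAT, the NF-Y box, in CENPF, each on either strand.
MCM6: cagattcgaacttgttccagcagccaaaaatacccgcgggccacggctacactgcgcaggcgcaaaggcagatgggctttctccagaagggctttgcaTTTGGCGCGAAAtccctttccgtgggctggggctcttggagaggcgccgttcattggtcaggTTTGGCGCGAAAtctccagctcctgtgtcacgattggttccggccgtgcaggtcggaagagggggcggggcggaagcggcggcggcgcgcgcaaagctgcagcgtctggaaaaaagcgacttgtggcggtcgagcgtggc
CENPF: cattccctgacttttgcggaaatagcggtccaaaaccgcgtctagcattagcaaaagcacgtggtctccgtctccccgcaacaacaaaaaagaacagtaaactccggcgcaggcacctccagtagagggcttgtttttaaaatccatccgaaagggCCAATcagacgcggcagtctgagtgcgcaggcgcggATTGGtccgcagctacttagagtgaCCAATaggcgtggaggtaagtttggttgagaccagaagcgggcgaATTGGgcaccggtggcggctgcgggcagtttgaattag
TTTNGCGC stood in 15 of 32 G1/S promoters (46.9%), against 1.83% of all promoters. CCAAT stood in 21 of 27 G2/M promoters (77.8%), against 35.7% of all. TTTGAA, the cell cycle homology region, stood in 17 of these 27 (63%), against 15.4%. TTTNGCGC and TTTGAA were added as motifs after the values were seen. Motifs planned before did not stand out in every list. The AP-1 site TGANTCA stood in 1 of 21 immediate early promoters (4.76%), against 7.76% of all. The E-box CACGTG stood in 10 of 23 promoters of ribosome biogenesis genes (43.5%), against 7.43% of all. CENPF fell by 2.48 in HT29 and had a response of -0.012 in t-hESC that was not called.

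**Figure D3:**
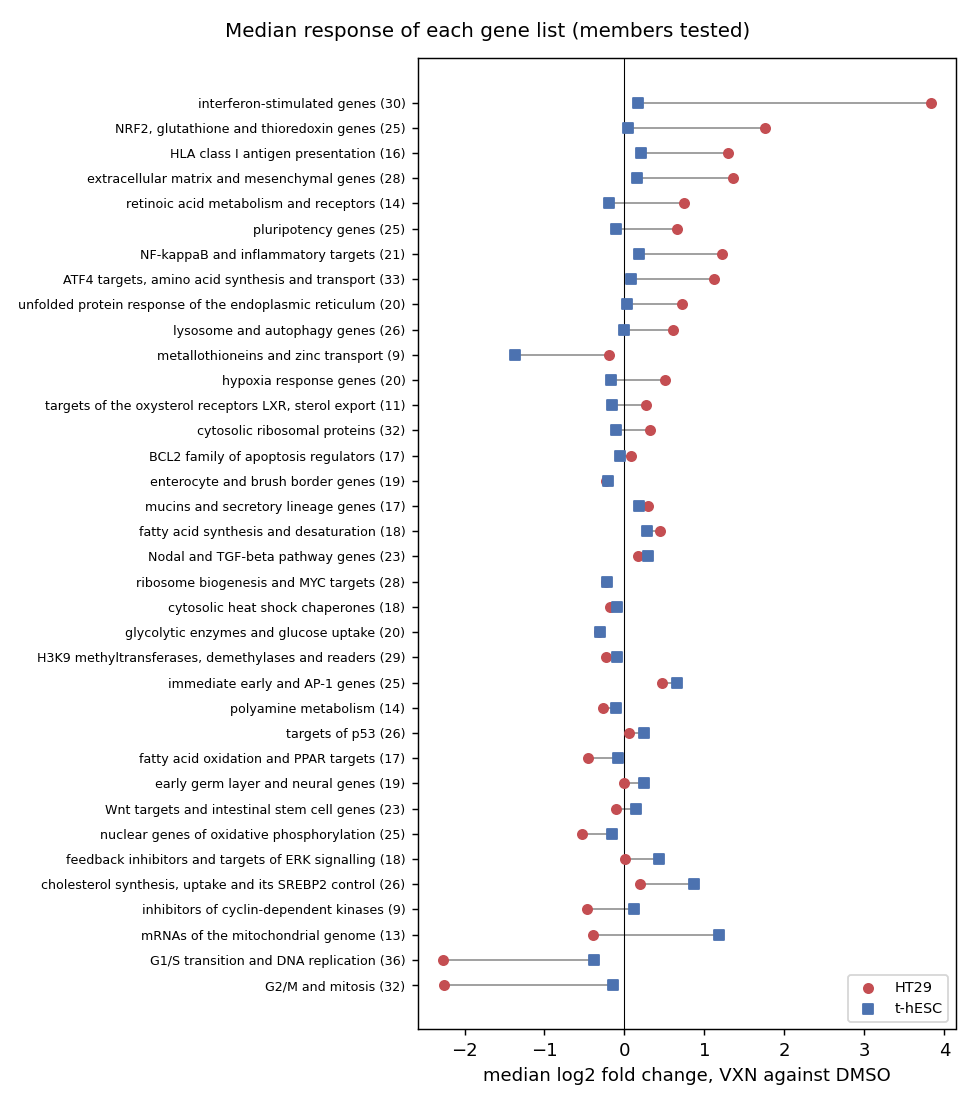
Median log2 fold change of VXN against DMSO (horizontal axis) over the tested members of each list with at least 5 of them (vertical axis, number tested in brackets), in HT29 (red circles) and t-hESC (blue squares), ordered by the median difference. Interferon-stimulated genes lie at 3.83 in HT29 and 0.17 in t-hESC, and mRNAs of the mitochondrial genome at -0.39 and 1.19.

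Messenger RNAs of the mitochondrial genome responded in opposite directions. Of 13, 9 fell and 4 rose in HT29, all 13 rose in t-hESC, and 9 were opposite, with a median difference of -1.55. MT-ND4, a subunit of complex I, had 1759 and 1763 CPM in HT29 VXN libraries, against 3133 and 3089 CPM in HT29 DMSO libraries. It had 3828 and 3948 CPM in t-hESC VXN libraries, against 1401 and 1396 CPM in t-hESC DMSO libraries, and both differences between VXN and DMSO were far wider than the spread of 2 libraries. Its difference was -2.3 ± 0.038 (SE, adjusted p = 3.04e-52). MT-CO1, MT-CO2 and MT-CO3 of cytochrome c oxidase fell by 1.16, 1.33 and 1.08 in HT29 and rose by 0.98, 0.9 and 0.73 in t-hESC. MT-ND1, MT-ND2, MT-ND3 and MT-ND5 rose in both lines, and MT-ND3 was the 1 mRNA without a called difference (0.72 in HT29, 0.73 in t-hESC). As shares of gene counts these mRNAs were 1.35 and 1.37% in HT29 VXN, against 2.19 and 2.17% in HT29 DMSO, and 3.10 and 3.08% in t-hESC VXN, against 1.45 and 1.46% in t-hESC DMSO. Nuclear copies of mitochondrial sequence can share their reads. The nuclear genes of oxidative phosphorylation did not follow this pattern: of 25, 0 rose and 25 fell in HT29, against 0 and 16 in t-hESC, with medians of -0.53 and -0.16. SDHA, a subunit of succinate dehydrogenase, fell by 1.22 in HT29 and 0.2 in t-hESC.

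Cytosolic ribosomal protein genes also split, by smaller amounts. Of 32, 28 rose and 3 fell in HT29, against 0 and 24 in t-hESC, 20 were opposite, and the medians were 0.32 in HT29 and -0.11 in t-hESC. RPS18 had 1890.2 and 1938 CPM in HT29 VXN libraries, against 1394 and 1368 CPM in HT29 DMSO libraries. It had 1515 and 1542 CPM in t-hESC VXN libraries, against 1734 and 1756 CPM in t-hESC DMSO libraries, without overlap in either line, and the difference was 0.66 ± 0.039 (SE, adjusted p = 1.73e-23). RPL3 and RPL6 fell in both lines and further in HT29 (-0.33 and -0.44). These genes have many processed copies that may share reads. The medians had opposite signs under size factors of the DESeq2 type and upper-quartile factors as well. Genes of ribosome biogenesis did not follow: of 28, 7 rose and 17 fell in HT29, against 1 and 20 in t-hESC, with medians of -0.23 and -0.22. FBL, the methyltransferase of box C/D particles, fell by 0.75 in HT29 and 0.27 in t-hESC, and RRP12 was an HT29-specific rise of 0.73.

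Sterol genes separated the lines in both arms of control. Of 26 genes of cholesterol synthesis and uptake, 15 rose and 9 fell in HT29, against 24 and 1 in t-hESC. The median was 0.2 in HT29 and 0.88 in t-hESC, and the difference was below 0 for 23. HMGCS1, which makes the precursor of mevalonate (chr5:43287470-43313412), had 192 and 184 CPM in HT29 VXN libraries, against 148 and 145 CPM in HT29 DMSO libraries. It had 1303 and 1272 CPM in t-hESC VXN libraries, against 468 and 479 CPM in t-hESC DMSO libraries, a rise in both lines, larger in t-hESC, with a difference of -1.08 ± 0.046 (SE, adjusted p = 1.19e-30). ACAT2, which makes acetoacetyl-CoA, had 35.2 and 37 CPM in HT29 VXN libraries, against 74.9 and 75.9 CPM in HT29 DMSO libraries. It had 330.0 and 314 CPM in t-hESC VXN libraries, against 202 and 195 CPM in t-hESC DMSO libraries, so that HT29 fell where t-hESC rose, with a difference of -1.76 ± 0.061 (SE, adjusted p = 2.79e-35). FDFT1, EBP, MVK, NSDHL, FDPS and HSD17B7 were opposite in the same sense, and IDI1 was t-hESC-specific (0.96). INSIG1, MSMO1 and STARD4 rose by 0.87, 1.02 and 0.89 in HT29 and by 1.44, 1.31 and 1.08 in t-hESC.

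Targets of LXR ran the other way. Of 11, 7 rose and 2 fell in HT29, against 2 and 6 in t-hESC, and 4 were opposite. RNF145, a ubiquitin ligase that limits sterol synthesis, had 178 and 179 CPM in HT29 VXN libraries, against 64.5 and 63.8 CPM in HT29 DMSO libraries. It had 46 and 46.4 CPM in t-hESC VXN libraries, against 104 and 99.6 CPM in t-hESC DMSO libraries, with a difference of 2.61 ± 0.062 (SE, adjusted p = 4.78e-44). ABCG1, a sterol exporter, had 40.1 and 41.1 CPM in HT29 VXN libraries, against 10.8 and 12.4 CPM in HT29 DMSO libraries. It had 1.08 and 2.14 CPM in t-hESC VXN libraries, against 3.46 and 3.53 CPM in t-hESC DMSO libraries, a difference of 2.91 ± 0.24 (SE). PLTP and SREBF1 were opposite in the same sense with smaller sizes (0.92 and 0.27 in HT29, -0.15 and -0.31 in t-hESC). ABCA1, the exporter that is paired with ABCG1 in textbooks, was not: it fell by 1.31 in HT29 and 1.33 in t-hESC, and the difference was not called (adjusted p = 0.993). Among 18 genes of fatty acid synthesis, 11 rose and 5 fell in HT29, against 12 and 1 in t-hESC. ACSL4 and ACLY were opposite (-0.52 and -0.38 in HT29, 0.56 and 0.37 in t-hESC), and FADS3 rose by 2.22 in HT29 and 0.31 in t-hESC. Of 17 genes of fatty acid oxidation, 2 rose and 11 fell in HT29, against 2 and 5 in t-hESC. ACAA2 stood at -1.0 in HT29 and -0.21 in t-hESC. Over all genes tested, 33% rose and 26.9% fell in HT29, and 14.5% and 14.6% in t-hESC. The falls of fatty acid synthesis genes in HT29 were near that share. So were the rises of LXR targets and of fatty acid oxidation genes in t-hESC.

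Most immediate early genes rose in both lines, with some members opposite. Of 25, 16 rose and 5 fell in HT29, against 21 and 1 in t-hESC. FOS had 23.1 and 22.4 CPM in HT29 VXN libraries, against 36.5 and 36.7 CPM in HT29 DMSO libraries. It had 8.01 and 10.7 CPM in t-hESC VXN libraries, against 2.25 and 1.6 CPM in t-hESC DMSO libraries, a called rise from low levels, and the difference was -2.99 ± 0.18 (SE, adjusted p = 1.33e-22). KLF2, a transcription factor of quiescence, was opposite too (-1.68 in HT29, 1.97 in t-hESC), as was BTG2 (-2.11 and 0.32). JUN rose by 0.23 in HT29 and 1.94 in t-hESC, while ZFP36, JUNB and NR4A1 rose by like amounts in both (1.33, 0.96 and 0.71 in HT29, 1.48, 1.23 and 0.7 in t-hESC). Most feedback inhibitors of ERK signalling rose in t-hESC: of 18, 8 rose and 8 fell in HT29, against 15 and 0 in t-hESC. SPRY4, which restrains receptor tyrosine kinase signalling, had 66.9 and 64.4 CPM in HT29 VXN libraries, against 67.9 and 61.3 CPM in HT29 DMSO libraries. It had 408 and 441 CPM in t-hESC VXN libraries, against 181 and 178 CPM in t-hESC DMSO libraries, a t-hESC-specific rise with a difference of -1.22 ± 0.061 (SE, adjusted p = 6.66e-27). DUSP6, the phosphatase of ERK, was opposite (-0.38 in HT29, 0.96 in t-hESC), as were SPRY1 and SPRY2. DUSP5 of this list and ATF3 of the immediate early genes had rises of 3.24 and 3.33 in HT29 that exceeded those in t-hESC (1.4 and 0.57).

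**Figure D4:**
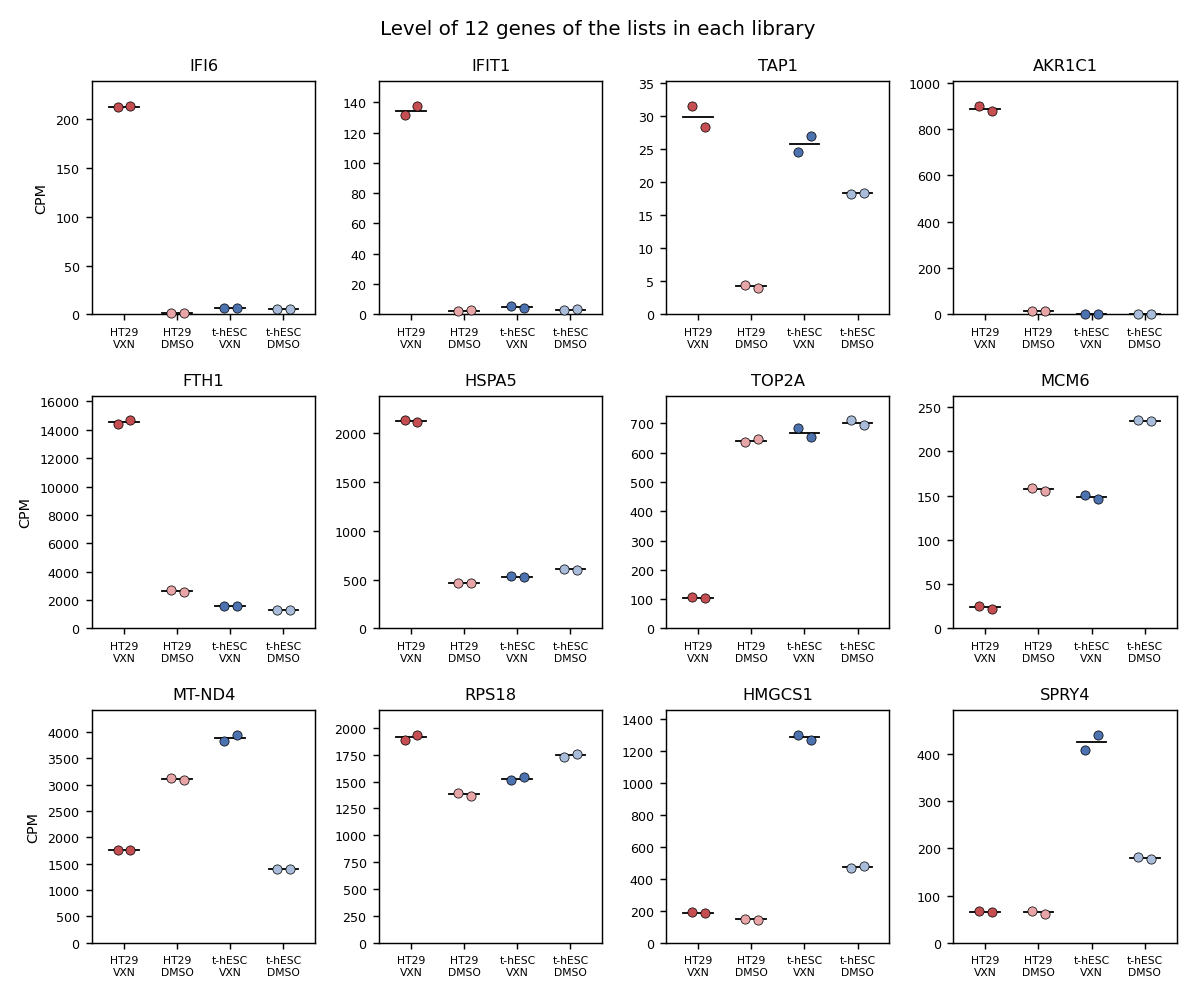
CPM (vertical axis, from 0) of 12 genes of the lists in each of the 8 libraries, with points for libraries and bars for the mean of 2. IFI6, AKR1C1, FTH1 and HSPA5 stand high in HT29 VXN alone, TOP2A and MCM6 are lowest there, and MT-ND4 and RPS18 move in opposite directions in the 2 lines.

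The opposite genes with the largest smaller response, 5 for each sign, were NPTX1, FOXP2, RNF145, ABCG1 and LINC01270, which rose in HT29, and TLR4, PAX5, LPAR6, ZDHHC8P1 and ONECUT2, which fell there. TLR4, the receptor of bacterial lipopolysaccharide (chr9:117704403-117724735), had 3.11 and 2.59 CPM in HT29 VXN libraries, against 8.24 and 8.67 CPM in HT29 DMSO libraries. It had 8.55 and 8.75 CPM in t-hESC VXN libraries, against 1.76 and 1.55 CPM in t-hESC DMSO libraries, so that the higher group changed with the line, with a difference of -3.95 ± 0.23 (SE, adjusted p = 9.99e-24). LPAR6, a receptor of lysophosphatidic acid, had 3.15 and 2.84 CPM in HT29 VXN libraries, against 13.6 and 13.1 CPM in HT29 DMSO libraries. It had 14.1 and 12.6 CPM in t-hESC VXN libraries, against 5.44 and 5.37 CPM in t-hESC DMSO libraries, a difference of -3.45 ± 0.17 (SE, adjusted p = 1.25e-26). For several of the other genes 1 line was near the floor. NPTX1, a secreted neuronal pentraxin, fell to 1.38 and 1.41 CPM in t-hESC VXN libraries, against 15.6 and 15.1 CPM in t-hESC DMSO libraries. In HT29 it had 0.262 and 0.101 CPM with VXN and 0 counts in both DMSO libraries. The VXN mean was 1.45-fold the DMSO floor of 3 counts per library. VXN library 2 lay under its own floor of 0.152 CPM, so the size of this rise is not measured. FOXP2, a forkhead factor, had 7.22 and 6.59 CPM in HT29 VXN libraries, against 0.865 and 1.07 CPM in HT29 DMSO libraries, while t-hESC held at most 0.377 CPM. ONECUT2, a homeodomain factor, had 29.6 and 31.9 CPM in HT29 VXN libraries, against 65.6 and 68.2 CPM in HT29 DMSO libraries, and in t-hESC it had 1.32 and 0.847 CPM in t-hESC VXN libraries, against 0.385 and 0.471 CPM in t-hESC DMSO libraries. PAX5, a B cell factor, stood at or below 0.214 CPM in HT29 and had 4.31 and 5.64 CPM in t-hESC VXN libraries, against 2.25 and 1.6 CPM in t-hESC DMSO libraries.

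**Figure D5:**
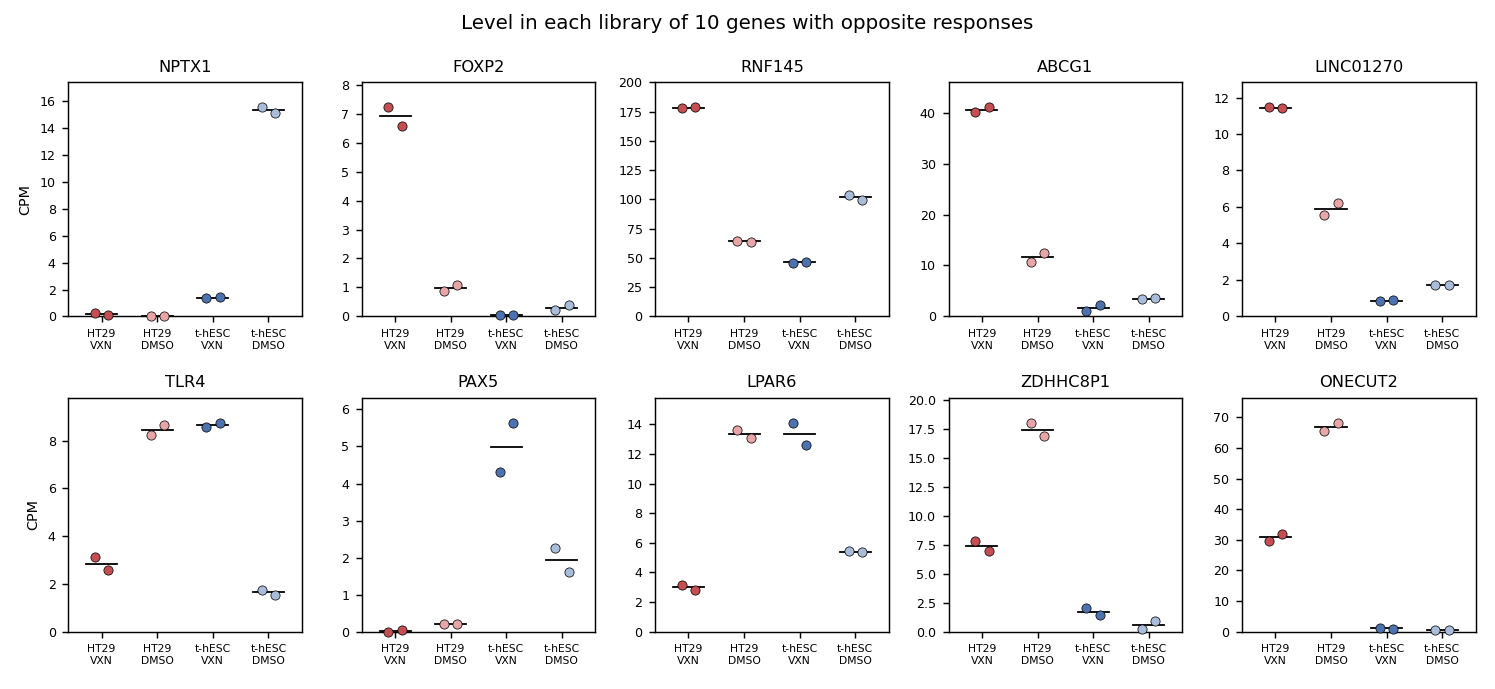
CPM (vertical axis, from 0) in each of the 8 libraries of the 10 opposite genes with the largest smaller response, with points for libraries and bars for the mean of 2. RNF145 and ABCG1 are higher under VXN in HT29 and lower in t-hESC, TLR4 and LPAR6 are lower in HT29 and higher in t-hESC, and NPTX1 and PAX5 are near 0 in HT29.

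The highest differences by the rule were those of PRAL, APCDD1L, EPSTI1, RSAD2, NPTX1, IFI44L, NMRAL2P, XAF1, SYNE3 and LINC02889. Of these 10, 8 had a mean under 1 CPM in t-hESC, so that their t-hESC response is hardly measurable. APCDD1L, an inhibitor-like relative of the Wnt antagonist APCDD1, was well measured there: it had 6.46 and 6.83 CPM in t-hESC VXN libraries, against 6.48 and 7.06 CPM in t-hESC DMSO libraries. In HT29 it had 3.02 and 2.53 CPM with VXN and 0 counts with DMSO, at least 22.1-fold higher. The lowest were NOX1, FBXL8, APLN, CD200, RNASE1, ZNF681, DKK1, METTL7A, TRPV4 and CPAMD8. Of these 10, 5 had a mean under 1 CPM in HT29 and 3 in t-hESC, and APLN, ZNF681 and CPAMD8 had 0 counts in HT29 VXN. NOX1, an NADPH oxidase of colon epithelium, had 0.875 and 0.558 CPM in HT29 VXN libraries, against 18.9 and 16.6 CPM in HT29 DMSO libraries, and was at most 0.282 CPM in t-hESC. DKK1, a secreted Wnt antagonist, had 5.86 and 6.69 CPM in HT29 VXN libraries, against 147 and 143 CPM in HT29 DMSO libraries, while t-hESC held under 1 CPM. CD200, an immune checkpoint ligand, had 0.437 and 0.507 CPM in HT29 VXN libraries, against 10.6 and 11 CPM in HT29 DMSO libraries. It had 88.3 and 84.9 CPM in t-hESC VXN libraries, against 64.7 and 67.1 CPM in t-hESC DMSO libraries, an opposite response with a difference of -4.89 ± 0.2 (SE, adjusted p = 2.22e-31).

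Among genes that averaged 1 CPM or more in all 4 groups, a limit set after the values were seen, the highest differences after IFI6 and AKR1C1 were those of UNC5B, IFIT1, MX1, MAP2, DDX60, SDCBP2, TNC and SLFN5. UNC5B, a netrin receptor, had 164 and 165 CPM in HT29 VXN libraries, against 2.72 and 3.63 CPM in HT29 DMSO libraries. It had 55 and 61 CPM in t-hESC VXN libraries, against 46.1 and 45.5 CPM in t-hESC DMSO libraries, a difference of 5.35 ± 0.1 (SE). TNC, the matrix protein tenascin C, rose by 3.92 in HT29, with a t-hESC response of -0.11 that was not called. The lowest were SLC4A4, ADRA2A, TLR4, LPAR6, PHLDB2, SLC12A2, C2orf72, WNK4, MYB and CENPI. SLC12A2, the sodium, potassium and chloride cotransporter of secretory epithelium, had 91.6 and 93.3 CPM in HT29 VXN libraries, against 859 and 865 CPM in HT29 DMSO libraries. It had 14.4 and 15.8 CPM in t-hESC VXN libraries, against 13.5 and 13.4 CPM in t-hESC DMSO libraries, a difference of -3.39 ± 0.1 (SE). SLC4A4, a sodium bicarbonate cotransporter, fell by 3.78 in HT29, and MYB, a factor of progenitor cells, fell in both lines (-4.21 in HT29, -1.08 in t-hESC). WNK4, a kinase that controls ion transport, was opposite (-2.15 and 0.99).

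The shared genes of like size were led by MT-TI, GDF15, MT-TM, ACSS2 and MT-TS2 among rises. Among falls they were led by MYB-AS1, FAM3D, MT1E, TM4SF4 and NOXO1. Like size means only that the difference was not called, and 59 of these 1458 genes differed by at least 1 on the log2 scale. GDF15, a stress-induced hormone of the TGF-beta family, had 889.8 and 909 CPM in HT29 VXN libraries, against 205 and 195 CPM in HT29 DMSO libraries. It had 65.4 and 58.3 CPM in t-hESC VXN libraries, against 12.6 and 15 CPM in t-hESC DMSO libraries, and although the levels differed between the lines the responses were 2.17 and 2.15 (95% interval of the difference -0.16 to 0.19). ACSS2, which makes acetyl-CoA from acetate, had 48.2 and 48.5 CPM in HT29 VXN libraries, against 13.1 and 12.1 CPM in HT29 DMSO libraries. It had 229 and 228 CPM in t-hESC VXN libraries, against 61.1 and 58.2 CPM in t-hESC DMSO libraries, with responses of 1.94 and 1.94 and an interval of -0.21 to 0.2. MT1E, a metallothionein, fell by 1.55 in HT29 and 2.03 in t-hESC. The 3 mitochondrial tRNA genes are short, and their t-hESC levels were at most 1.3 CPM. FAM3D and TM4SF4 were at 0 counts in t-hESC VXN and at most 0.235 CPM in t-hESC DMSO. No like size can be read from them. The 95% interval of the difference was -5.39 to 3.71 for MYB-AS1, -0.734 to 1.39 for NOXO1 and -0.403 to 2.65 for MT-TI. MYB-AS1, NOXO1 and MT-TI averaged under 1 CPM in t-hESC, so equal responses cannot be read from them either. Of 9 metallothionein and zinc transport genes, 2 rose and 4 fell in HT29, against 0 and 6 in t-hESC. Over all genes, 33% rose and 26.9% fell in HT29, and 14.5% and 14.6% in t-hESC. MT1X was t-hESC-specific: it had 6.58 and 6.26 CPM in t-hESC VXN libraries, against 16.2 and 16.8 CPM in t-hESC DMSO libraries, with a response of -0.15 in HT29 that was not called. SLC30A1, a zinc exporter, was an HT29-specific rise of 0.7, and metallothionein copies may share reads.

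Most glycolytic genes fell in both lines, mostly by more in HT29: of 20, 6 rose and 13 fell in HT29, against 3 and 16 in t-hESC, and 14 were shared with unequal size. LDHA, lactate dehydrogenase A, had 326 and 324 CPM in HT29 VXN libraries, against 816 and 809.7 CPM in HT29 DMSO libraries. It had 77.9 and 79.8 CPM in t-hESC VXN libraries, against 113 and 112 CPM in t-hESC DMSO libraries, a difference of -0.81 ± 0.052 (SE). SLC2A1 (GLUT1) of glucose uptake and HK2 of the first step were the 2 opposite members. They rose in HT29 (0.5 and 0.57) and fell in t-hESC (-0.26 and -0.46). Other members rose in HT29 as well, and the highest response of the list there was 2.72. Of 20 hypoxia response genes, 10 rose and 2 fell in HT29, against 4 and 8 in t-hESC. VEGFA, the angiogenic factor, had 535 and 527 CPM in HT29 VXN libraries, against 82.2 and 84.1 CPM in HT29 DMSO libraries, and rose by 0.24 in t-hESC. P4HA2, a collagen hydroxylase, was an HT29-specific rise of 1.93. CA9, a widely used hypoxia marker, fell by 3.14 in HT29, so the list did not move as a block. Of 14 genes of polyamine metabolism, 4 rose and 8 fell in HT29, against 2 and 7 in t-hESC. SMS stood at -1.08 and -0.21, OAZ1 at -0.72 and -0.15, and ARG2 was opposite at 0.9 and -0.2 in HT29 and t-hESC. Over all genes 33% rose in HT29, so the rises of glycolytic and polyamine genes there were near that share. Of 18 cytosolic chaperones, 1 rose and 11 fell in HT29, against 4 and 9 in t-hESC, and HSPA1A, the inducible HSP70, was opposite (-0.31 in HT29, 0.89 in t-hESC).

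Genes of apoptosis and of the p53 pathway split by member. Of 26 p53 targets, 11 rose and 8 fell in HT29, against 18 and 1 in t-hESC. Over all genes tested, 33% rose and 26.9% fell in HT29, and 14.5% and 14.6% in t-hESC. The falls of p53 targets in HT29 were near that share. PLK2, a kinase induced by stress, had 162 and 161 CPM in HT29 VXN libraries, against 377 and 374 CPM in HT29 DMSO libraries. It had 32.9 and 31.5 CPM in t-hESC VXN libraries, against 18.4 and 19.7 CPM in t-hESC DMSO libraries, an opposite response with a difference of -1.97 ± 0.079 (SE, adjusted p = 7.85e-32). FAS and DDB2 were opposite in the same sense, MDM2 and BAX were t-hESC-specific rises of 0.21 and 0.17, and SESN2 was an HT29-specific rise of 1.81. In the BCL2 family of 17, 8 rose and 4 fell in HT29, against 6 and 3 in t-hESC, and the falls were near the shares over all genes. BCL2, the founding inhibitor of cell death, had 0 and 0.152 CPM in HT29 VXN libraries, against 0.742 and 0.939 CPM in HT29 DMSO libraries. It had 5.32 and 5.7 CPM in t-hESC VXN libraries, against 4.51 and 3.3 CPM in t-hESC DMSO libraries. The fitted difference was -3.97 ± 0.65 (SE, adjusted p = 4.04e-07). The HT29 VXN values lay at or under the floors of those libraries (0.131 and 0.152 CPM), so the size of this difference is not measured. MCL1, another inhibitor, was t-hESC-specific with a rise of 0.5, while PMAIP1 and BMF, which promote death, rose by 1.87 and 1.41 in HT29, against 0.31 and -0.2 in t-hESC. Of 21 NF-kappaB and inflammatory targets, 18 rose and 2 fell in HT29, against 8 and 0 in t-hESC. NFKB2, RELB and TNFAIP3 rose in both lines, by 1.22, 1.78 and 1.92 in HT29 and 0.32, 0.92 and 1.02 in t-hESC, and TNFAIP2 was an HT29-specific rise of 0.88.

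Writers, erasers and readers of H3K9 methylation, the mark in the series title, fell in both lines more than they rose. Of 29, 10 rose and 15 fell in HT29, against 2 and 13 in t-hESC. Over all genes 33% rose in HT29, and the rises in this list were near that share. EHMT1 (GLP), one of the paired methyltransferases that deposit H3K9me2, had 82 and 80.1 CPM in HT29 VXN libraries, against 84.9 and 86.9 CPM in HT29 DMSO libraries. It had 117 and 119 CPM in t-hESC VXN libraries, against 147 and 141 CPM in t-hESC DMSO libraries, so that a small fall was called in t-hESC (response -0.29) and not in HT29 (response -0.082), with a difference of 0.21 ± 0.058 (SE, adjusted p = 0.00224, 0.0632 under DESeq2). EHMT2 (G9a), its partner, fell by 0.67 in HT29 and 0.23 in t-hESC, with a difference of -0.44 ± 0.058 (SE). UHRF1 and DNMT1, which maintain DNA methylation, fell by 2.52 and 1.35 in HT29 and 0.68 and 0.12 in t-hESC. SUV39H1, which adds further methyl groups to the same lysine, was an HT29-specific fall of 2.06. KDM7A, an H3K9 demethylase, was an HT29-specific rise of 1.48. UHRF1 also stands in the G1/S list, which fell as a whole in HT29.

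Pluripotency genes, which t-hESC held at 1 CPM or more for all 25 tested and HT29 for 8, had a difference above 0 for 7 and below 0 for 3, beside 22.9% and 20.3% of all genes, so the share called was near that over all genes. In t-hESC POU5F1 had 1554 and 1534 CPM in t-hESC VXN libraries, against 1702 and 1673 CPM in t-hESC DMSO libraries, a fall of 0.13, SOX2 fell by 0.32 and NANOG rose by 0.41, and none had a called difference. TDGF1, the Nodal co-receptor, had 5.6 and 5.68 CPM in HT29 VXN libraries, against 2.06 and 2.22 CPM in HT29 DMSO libraries. It had 179 and 166 CPM in t-hESC VXN libraries, against 276 and 269 CPM in t-hESC DMSO libraries, so it was opposite, with a difference of 2.06 ± 0.16 (SE, adjusted p = 3.46e-17). SALL4 was an HT29-specific rise of 1.2 at low level (3.19 and 3.09 CPM with VXN). LIN28A was called opposite, but HT29 VXN held 0.35 and 0.862 CPM, higher in library 2, against 896 and 882 CPM in t-hESC VXN.

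Among lineage genes the difference was called for 8 of 19 germ layer and neural, 7 of 17 secretory and 8 of 19 enterocyte genes, shares near the 43.2% over all genes, and for 17 of 23 Wnt and stem cell genes. Of 19 germ layer and neural genes, 4 rose and 6 fell in HT29, against 8 and 3 in t-hESC. SOX9, a factor of progenitors in gut and neural crest, had 115 and 119.7 CPM in HT29 VXN libraries, against 179 and 182 CPM in HT29 DMSO libraries. It had 37 and 36.6 CPM in t-hESC VXN libraries, against 14.6 and 15.1 CPM in t-hESC DMSO libraries, an opposite response with a difference of -1.93 ± 0.081 (SE, adjusted p = 8.66e-31). Of 23 Wnt targets and intestinal stem cell genes, 6 rose and 11 fell in HT29, against 6 and 2 in t-hESC, with LGR4 opposite (-1.11 in HT29, 0.14 in t-hESC) and CD44 an HT29-specific fall of 1.54. Of 17 mucins and secretory genes, 8 rose and 6 fell in HT29, against 0 and 1 in t-hESC. MUC4, a membrane mucin, had 8.62 and 9.53 CPM in HT29 VXN libraries, against 0.165 and 0.128 CPM in HT29 DMSO libraries, and TFF3, a goblet cell peptide, had 0.437 and 0.253 CPM in HT29 VXN libraries, against 5.65 and 4.91 CPM in HT29 DMSO libraries. Of 19 enterocyte and brush border genes, 4 rose and 10 fell in HT29, against 1 and 2 in t-hESC. KRT8 and KRT18, keratins of simple epithelium, fell by 0.6 and 0.54 in HT29, and in t-hESC KRT18 rose by 0.12 while KRT8 was not called (-0.016). t-hESC held only 4 of the secretory and 10 of the enterocyte genes at 1 CPM or more.

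In the Nodal and TGF-beta list the difference was called for 10 of 23 genes, a share near the 43.2% over all genes, with a median of 0.015 that was -0.016 under size factors of the DESeq2 type. Of 23 Nodal and TGF-beta pathway genes, 11 rose and 7 fell in HT29, against 13 and 1 in t-hESC. BMP4, a morphogen, had 118 and 118 CPM in HT29 VXN libraries, against 299 and 293 CPM in HT29 DMSO libraries. It had 3.71 and 3.22 CPM in t-hESC VXN libraries, against 1.54 and 1.74 CPM in t-hESC DMSO libraries, an opposite response with a difference of -2.39 ± 0.21 (SE, adjusted p = 2.33e-15). SMAD7, a feedback inhibitor of TGF-beta, rose by 0.84 in HT29 and 0.8 in t-hESC, with no called difference. Of 28 matrix and mesenchymal genes, 21 rose and 3 fell in HT29, against 13 and 5 in t-hESC, and the difference was above 0 for 19 and below 0 for 2. COL4A1, a collagen of basement membranes, had 2.27 and 2.18 CPM in HT29 VXN libraries, against 0.206 and 0.171 CPM in HT29 DMSO libraries. It had 105 and 118 CPM in t-hESC VXN libraries, against 114 and 115 CPM in t-hESC DMSO libraries, so HT29 remained far below t-hESC while it rose, and the difference was 3.55 ± 0.37 (SE). HSPG2, the proteoglycan perlecan, was opposite (-0.82 in HT29, 0.73 in t-hESC). TIMP3, an inhibitor of matrix proteases, was at 0 in HT29 DMSO and averaged 0.69 CPM in HT29 VXN, at least 5.48-fold higher. Of 14 genes of retinoic acid metabolism, 7 rose and 3 fell in HT29, against 3 and 7 in t-hESC, and STRA6, the retinol receptor, was opposite (2.44 and -0.25), as was DHRS3 (0.79 and -0.89). Of 20 germline genes only 4 passed the filter, 0 rose and 1 fell in HT29.

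The authors' deposited tables, computed by them for each line alone, were compared by their calls. Of the HT29 calls in the authors' deposited table among genes tested here, 8162 of 8167 were called here in the same direction. Of the t-hESC calls there, 1208 of 1209 were. The authors called fewer genes, 3947 higher and 4272 lower in HT29 and 615 and 595 in t-hESC. Here 7430 and 6060 were called in HT29 and 3254 and 3277 in t-hESC, so most t-hESC calls here are absent there. Of the shared genes here, 247 of 1458 of like size and 436 of 2100 of unequal size are called there in both lines with the same sign. The authors' deposited tables call 819 genes in both lines, 684 with the same sign and 135 with opposite signs, and all of these 135 were opposite here. Of the 1170 opposite genes found here, the authors' deposited tables call 135 in both lines with opposite signs and 0 with the same sign. The rest are not called in both lines there. HSPA5, DDIT4, MKI67 and WARS1, opposite here, are called there in HT29 alone, and RPS18 in neither line. Both sets of calls come from the same libraries, so their agreement is not independent evidence.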

How the data were processed

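The authors deposited raw counts, whole numbers whose sums differ between libraries, with 60651 gene rows and 1181 rows of repeat families. The library kit was TruSeq RNA v2, per the labels' protocols, and it keeps no record of strand. The tools fastp 0.20.1, FastQC 0.11.9, STAR and DESeq2 1.34.0, with GRCh38 (hg38) as the build, are named, without roles, per the submitters' processing notes. Neither counting program nor annotation is given in the sources used here. The handling of reads that fit near-identical, overlapping or antisense genes is therefore unknown. The authors also deposited log2 fold changes and adjusted p-values per line, of which only calls and directions were used. Another 4 columns of the table belong to no sample given and were left out.

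Counts were fitted with edgeR 4.0.16 (R 4.3.3): TMM, filterByExpr with a minimum count of 10, and the robust quasi-likelihood F test over all 10 libraries in 5 groups of 2, without repeat rows in library sizes. This left 5 residual degrees of freedom beside 56.7 prior ones, and the common biological coefficient of variation was 0.0207. CPM use the scaled library sizes. The test of the difference was also run on counts simulated with the spread estimated from these data. Such a run cannot show whether that estimate is right. Named genes were the 10 highest and 10 lowest differences, the 10 opposite and 10 shared genes with the largest smaller response (mean of at least 4 CPM in a group), up to 3 members per list by p of the difference, and, fixed by name, CDX2, SOX2, NANOG, POU5F1, EHMT2 and EHMT1. Other genes were named as examples after their values were seen, and some genes are not reported here. The 37 lists (821 genes) and the comparison were chosen with earlier results of these data known, so no list is independent evidence of its direction. Promoters and coordinates came from RefSeq (GRCh38.p14), matched by symbol. Alternatives were other size factors, DESeq2 1.42.0, other filters, thresholds, 8 libraries alone, the replicate block and each library left out.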

Additional observations from a re-analysis of the deposited data

Results flagged for a closer look

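The response to VXN differed between the lines by the test of the difference itself for 5161 genes above 0 and 4561 below 0, and 1170 genes were called in both lines with opposite signs. Among the 10 opposite genes singled out, the difference (HT29 minus t-hESC, log2) was 8.36 for NPTX1, 5.10 for FOXP2, 2.61 for RNF145, 2.91 for ABCG1 and 1.94 for LINC01270. It was -3.95 for TLR4, -4.24 for PAX5, -3.45 for LPAR6, -2.78 for ZDHHC8P1 and -2.43 for ONECUT2. RNF145, ABCG1, TLR4 and LPAR6 stood above 1 CPM in every library of both lines, while NPTX1 and PAX5 were near 0 in HT29. HT29 DMSO held 0 counts of NPTX1, so its fitted difference is not a measured size. Repeat families, which no comparison above uses, also differed: 327 of 1015 tested gave a difference above 0 and 47 below 0. The causes were not tested. Groups of 2 libraries allow no test for outlying samples.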

How the results depend on the processing

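No called difference of a named gene changed sign under any alternative run. Some medians near 0 did: over all genes in t-hESC it was -0.0078 with upper-quartile factors, and with size factors of the DESeq2 type it was -0.027 in HT29 for feedback inhibitors of ERK and -0.016 for the difference of Nodal and TGF-beta genes, against 0.0098 and 0.015 as reported. DESeq2 gave 1928 rises and 2137 falls in t-hESC, 658 opposite genes, 1330 shared with unequal size and 403 t-hESC-specific. An adjusted p under 0.01 left 731 opposite genes. Testing against a fold of 1.2 left 968 rises and 443 falls in t-hESC, 149 opposite, 377 shared of like size, 260 shared of unequal size and 205 t-hESC-specific genes, with 529 called for the difference alone. The cause of the DESeq2 counts was not tested, and the other settings ask for smaller p or larger responses by construction. With each library left out in turn (a lone library is then assumed to vary like the others), the difference was above 0 for 4553 to 4795 genes and below 0 for 4149 to 4324, opposite genes numbered 824 to 1031, HT29-specific 5052 to 5913, t-hESC-specific 482 to 664, shared of like size 1214 to 1437 and shared of unequal size 1522 to 1908. HT29 then had 6632 to 7583 rises and 5504 to 6217 falls, and t-hESC 2287 to 3194 and 2560 to 3275. With a term for the replicate number (replicate block) 5118 and 4541 genes were called for the difference and 1151 were opposite. The deviations of same-numbered libraries correlated at -0.02 to 0.0145 over 6 pairs of groups. Much of each deviation is counting error, so these low correlations cannot show whether same-numbered libraries were handled together. Size factors of the DESeq2 type set the median response in HT29 at 0.018 and in t-hESC at 0.0061. Among genes named, ZNF681, CPAMD8, LINC02889, NMRAL2P, MUC20, MSMO1, STARD4 or TNFAIP3 lost the call for the difference when 1 library was left out. Against a fold of 1.2 the call was lost for MDM2, BAX, EHMT1, MSMO1, STARD4, RPL3, RPL6, PHGDH, PRDX1 and MT-ND2. It was lost for EHMT1 and TNFAIP3 under DESeq2. An adjusted p under 0.01 was not reached by NMRAL2P, LINC02889, CPAMD8, TNFAIP3 and STARD4. The causes were not tested. Levels under 0.124 to 0.179 CPM cannot be told from 0.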

Other observations

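Repeat families, counted by the authors in the same table, moved with VXN in both lines and further in HT29. The fit used the library sizes of the genes and was added after the values were seen. Of 1015 families tested, 689 rose and 42 fell in HT29, against 287 and 10 in t-hESC, with medians of 0.517 and 0.227 on the log2 scale (edgeR quasi-likelihood test). Among 57 SINE families, which include Alu elements, 52 rose in HT29 and 39 in t-hESC, and the difference was above 0 for 42 and below 0 for 0 (at adjusted p under 0.05). Among 532 LTR families, which include endogenous retroviruses, 338 rose and 22 fell in HT29 and 115 rose and 6 fell in t-hESC. The difference was above 0 for 142 of them and below 0 for 30. Over all 1015 families the difference was above 0 for 327 and below 0 for 47. The shares of LTR families that rose in each line, or had a difference above 0, were below those over all families. Repeat rows took 5.64% of all counts in both HT29 VXN libraries, against 4.25 and 4.31% in HT29 DMSO, and 4.15 and 4.16% in t-hESC VXN, against 3.54 and 3.52% in t-hESC DMSO. Members of a family lie in many genes, so that reads from introns and untranslated regions cannot be told apart from transcripts of the repeats.

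Genes at the threshold of the call for the difference were LARP7 (-0.26) and GABRA2 (1.60) just inside, at an adjusted p of 0.0499 each, and TMEM33 (0.16) and PATL2 (2.52) just outside, at 0.05. Gene length had a Spearman rho of -0.0119 with the HT29 response and -0.0212 with the t-hESC response across 10986 protein-coding genes.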
